A study of Mus musculus with 6 samples.

Results

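Aire, Gipr, Atp9a, Acap1, Prtn3 and Ghrh were at or near 0 counts in mouse embryonic fibroblasts (MEF) and had between 96 and 1407 counts after the cells had passed through narrow pores. These 6 genes of the 55335 in the deposited table were chosen by their counts in these libraries: at most 3 in each control library and clear counts after transmigration. Their own counts are therefore given as a description, without a test. MEF, an adherent connective tissue cell line of WT genotype, were sequenced as parental cells (Ctrl) and after migration through a transwell membrane with 3 μm pores, collected after 15 h (Confine). The labels give 1 serum-containing culture medium for both groups, but the study's transwell method, described for another pore size, seeds cells without serum above complete medium. Serum exposure during migration and passage through the pores then cannot be told apart. Polyadenylated RNA was read from strand-marking libraries. The table has 3 Ctrl and 3 Confine columns, but the first and the second Confine column are identical for each of the 55335 genes. They were taken as a single library, called Confine replicate 1, so that 3 Ctrl and 2 Confine libraries were compared. The labels do not say that replicates came from separate cultures, and p-values then measure only the spread between these samples, which may be technical.

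The 6 genes are known from unrelated tissues. Aire, the autoimmune regulator, lets medullary thymic epithelial cells transcribe genes of other tissues so that developing T cells meet those antigens. Gipr is the receptor of the incretin hormone GIP on islet and fat cells and signals through cAMP. Ghrh is the hypothalamic peptide that releases growth hormone from the pituitary. Prtn3 encodes proteinase 3, a serine protease of neutrophil granules. Acap1 activates the GTPase of ARF6 in endosomal recycling, and Atp9a is a P4-ATPase of endosomes and the trans-Golgi network.

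The bases before annotated RefSeq start sites are shown because they give the sequence context of the genes whose reads appeared, and which start was used was not measured. The RefSeq promoter table (GRCm38.p6) held 4 of the 6 genes, and Gipr and Acap1 had no entry. The 250 bases before each start were searched on both strands for 6 short motifs. The core of the hypoxia response element was searched as ACGTG or as its variant GCGTG, and the TATA box was searched as TATAAA. The CCAAT box was searched by the letters of its name, and the GC box was searched as GGGCGG. The AP-1 site was searched as TGACTCA, and the half-site of the cAMP response element was searched as TGACG. Capitals mark the hypoxia core, TATA and CCAAT letters on either strand. The Aire sequence is chr10:78043611-78043860 on the minus strand and lies before the annotated gene. The Prtn3 sequence is chr10:79879417-79879613 on the plus strand and stops where an annotated exon begins. The Ghrh sequences are chr2:157337427-157337676 and chr2:157346656-157346905, both on the minus strand, before 2 alternative starts. The Prtn3 and Ghrh windows lie inside the annotated gene bodies, which reach farther upstream in GENCODE.
Aire: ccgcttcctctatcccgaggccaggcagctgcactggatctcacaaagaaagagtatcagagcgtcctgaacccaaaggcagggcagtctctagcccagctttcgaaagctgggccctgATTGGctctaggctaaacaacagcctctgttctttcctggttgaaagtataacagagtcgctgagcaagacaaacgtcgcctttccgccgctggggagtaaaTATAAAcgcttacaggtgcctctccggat
Prtn3: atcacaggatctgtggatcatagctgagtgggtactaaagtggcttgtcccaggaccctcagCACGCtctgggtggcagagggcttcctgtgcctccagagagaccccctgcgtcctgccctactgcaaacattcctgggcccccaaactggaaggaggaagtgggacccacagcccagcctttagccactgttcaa
Ghrh start 1: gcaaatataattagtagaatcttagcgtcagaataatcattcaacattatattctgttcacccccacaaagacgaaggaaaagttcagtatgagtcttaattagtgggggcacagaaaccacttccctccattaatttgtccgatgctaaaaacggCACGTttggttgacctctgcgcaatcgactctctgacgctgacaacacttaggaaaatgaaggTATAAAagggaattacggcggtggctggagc
Ghrh start 2: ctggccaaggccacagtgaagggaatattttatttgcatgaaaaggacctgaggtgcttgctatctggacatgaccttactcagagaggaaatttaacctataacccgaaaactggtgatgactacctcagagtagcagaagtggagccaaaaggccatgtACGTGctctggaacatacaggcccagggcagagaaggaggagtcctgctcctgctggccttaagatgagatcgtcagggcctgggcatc

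The Aire window held a TATA box 29 bases and a CCAAT box 131 bases before the start, and no hypoxia core. The Prtn3 window held 1 hypoxia core, 188 bases before the RefSeq start at 79879667. Both Ghrh windows held a hypoxia core, 94 and 89 bases before their starts, and the window of start 1 also held a TATA box at 31 bases and cAMP half-sites at 225 and 61 bases. A cAMP half-site lay 18 bases before Ghrh start 2. Atp9a has 4 RefSeq starts, all inside the annotated gene body. The window before 168741800, which overlaps an exon, held 53 CpG, 4 hypoxia cores and 5 GC boxes, and the one before 168742136, which also overlaps an exon, held 1 hypoxia core and 1 GC box. Those before 168712957 and 168734339 held none of the 6 motifs. None of the 8 windows of these 4 genes held the AP-1 letters. These letters are common: of 32851 windows of the same length, 38.6% held a hypoxia core, 12.4% a TATA box, 33.8% a CCAAT box, 32.7% a GC box, 17.8% a cAMP half-site and 4.46% an AP-1 site. A match is a description of the letters and not a measured site. The windows of Aire and of Ghrh start 1 held 11 and 10 CpG, above the median of 6 over all windows, and those of Prtn3 and Ghrh start 2 held 4 and 3.

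Aire had the highest counts of the group. Aire (ENSMUSG00000000731.15, chromosome 10 from 78030022 to 78043610, minus strand) had 0 counts in each of the 3 Ctrl libraries and 1407 and 906 counts in Confine replicates 1 and 3. As CPM, counts scaled to a common library size after TMM normalization, its Confine level was 41.8 ± 8.18 (SD, n = 2). Against a floor of 3 counts summed over the 3 Ctrl libraries, its Confine level was at least 1111-fold higher. Its level was thus clear in both Confine libraries and not detected in any Ctrl library. Per kb of its annotated exons, the Confine level was 10.9 CPM, above 75.8% of the tested genes.

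Gipr and Ghrh, the hormone receptor and the hormone, followed in level per kb. Gipr (ENSMUSG00000030406.7, chromosome 7 from 19156061 to 19166127, minus strand) had 0, 0 and 2 counts in Ctrl and 419 and 665 in Confine, a Confine level of 20.3 ± 8.66 CPM (SD, n = 2) and a pooled ratio of Confine to Ctrl of 781 (95% counting interval 216 to 6455). Ghrh (ENSMUSG00000027643.9, chromosome 2 from 157329497 to 157347506, minus strand) had 0 counts in every Ctrl library and 96 and 119 in Confine, a level of 3.98 ± 1.05 CPM (SD, n = 2) and at least 103-fold above the Ctrl floor. Because Ghrh has only 668 bp of annotated exons, its Confine level of 5.96 CPM per kb lay beside the 5.82 CPM per kb of Gipr. The Confine libraries of Ghrh and Gipr overlapped in this value, so their order was within the spread.

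Prtn3, the neutrophil protease, was the gene with the most reads in Ctrl. Prtn3 (ENSMUSG00000057729.12, chromosome 10 from 79874476 to 79883174, plus strand) had 1, 2 and 2 counts in Ctrl and 101 and 175 in Confine. Its level was 0.0651 ± 0.0268 CPM in Ctrl (SD, n = 3) and 5.18 ± 2.50 CPM in Confine (SD, n = 2), a pooled ratio of 79.5 (95% counting interval 33.7 to 247). The ratio was the smallest of the 3 genes for which one could be formed. Its Confine level per kb was 2.99 CPM, above 50.6% of the tested genes.

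Acap1 and Atp9a, which act on endosomal membrane traffic, were the lowest per kb. Acap1 (ENSMUSG00000001588.12, chromosome 11 from 69881567 to 69895539, minus strand) had 0, 0 and 1 counts in Ctrl and 122 and 161 in Confine, at 5.26 ± 1.61 CPM (SD, n = 2). Its pooled ratio was 408 (95% counting interval 72.6 to 16158). Atp9a (ENSMUSG00000027546.15, chromosome 2 from 168634438 to 168742409, minus strand) had 0 counts in every Ctrl library and 106 and 138 in Confine, at 4.53 ± 1.34 CPM (SD, n = 2), at least 117-fold above the Ctrl floor. Per kb these levels were 1.08 CPM for Acap1 and 0.766 CPM for Atp9a, above 30.5% and 24.8% of the tested genes, and their Confine libraries overlapped. All intervals and floors given here reflect counting error alone, because they are formed from read counts and leave out the spread between libraries. Duplicate reads of 1 molecule could not be recognized, so the counting error itself may be larger than given.

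**Figure D1:**
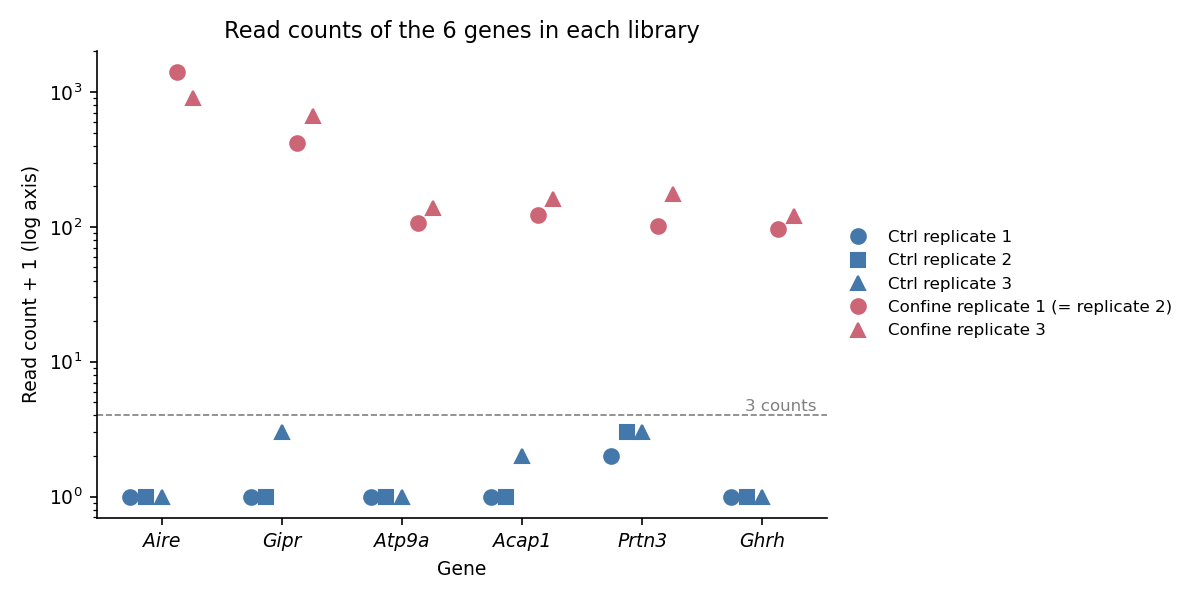
Read count plus 1 (log axis) of the 6 genes, 1 point for each Ctrl and Confine library, with a dashed line at the 3 counts allowed in Ctrl. All Ctrl points lie at 0 to 2 counts, and the Confine points run from 96 (Ghrh) to 1407 (Aire).

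The 2 Confine libraries did not give the 6 genes in the same proportion. After normalization, Aire was lower in Confine replicate 3 than in replicate 1 (ratio 0.757, 95% counting interval 0.695 to 0.823). The other 5 genes were higher in replicate 3, from a ratio of 1.46 (1.10 to 1.93) for Ghrh through 1.53 for Atp9a, 1.55 for Acap1 and 1.87 for Gipr to 2.04 (1.58 to 2.63) for Prtn3. For 6787 tested genes with 200 to 2500 summed Confine counts, the 5% and 95% points of these ratios were 0.714 and 1.52, with a median of 1.01. Gipr, Prtn3, Atp9a and Acap1 thus lay above the upper point, and Aire and Ghrh lay between these points. The counting intervals of Atp9a and Acap1 reached below it. Ghrh, Atp9a, Prtn3 and Acap1 had 215 to 283 summed Confine counts, near the low end of the range from 200 to 2500. The points were thus not matched to their counts. In bulk RNA, more cells with the transcript and more transcript per cell cannot be told apart.

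**Figure D2:**
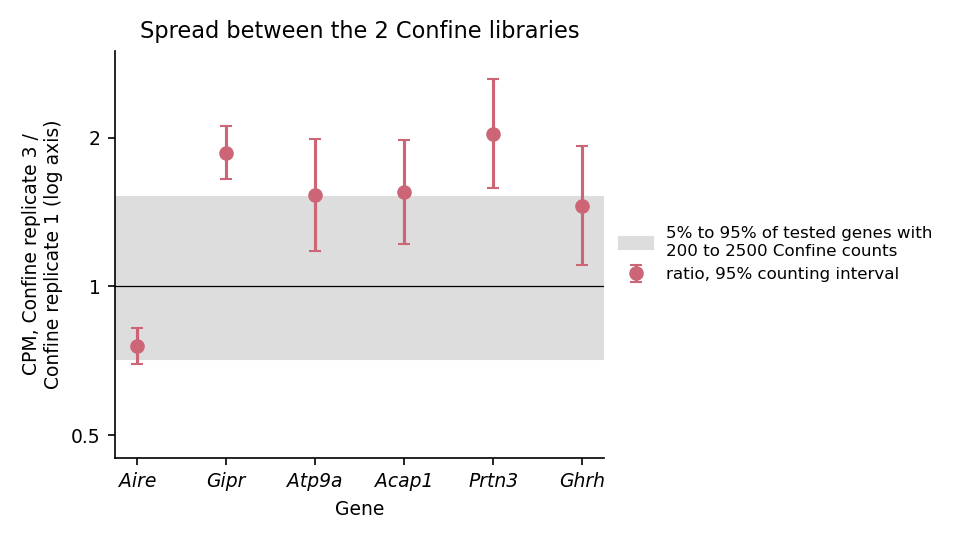
Ratio of the normalized level in Confine replicate 3 to that in Confine replicate 1 for each of the 6 genes (log axis). Bars are 95% counting intervals. The grey band runs from the 5% to the 95% point of 6787 tested genes with 200 to 2500 summed Confine counts. Aire lies below 1 at 0.757 and the other 5 genes lie above it, up to 2.04 for Prtn3.

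Few genes of the table showed this pattern. At most 3 counts in each Ctrl library were found for 35784 genes, and 8 of these (0.0224%) had at least 100 counts in each Confine library, which is 0.0145% of all 55335 genes. Of these 8 genes, 5 were Aire, Gipr, Acap1, Atp9a and Prtn3, and Ghrh fell just outside with 96 counts in Confine replicate 1. No gene had at most 3 counts in each Confine library and at least 100 in each Ctrl library. With at least 10 counts on the expressed side, 77 genes were near 0 in Ctrl and 25 near 0 in Confine. These directions were not matched, because the groups differ in their number of libraries and in total counts. All 6 genes passed the filter on low counts in edgeR, which they could do only through the Confine libraries.

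The 3 other genes with this pattern were Smtnl2, a smoothelin-like gene, Car12, which encodes a membrane carbonic anhydrase, and the unnamed transcript AC164106.1. Smtnl2 had 2, 0 and 0 counts in Ctrl and 533 and 552 in Confine, between Aire and Gipr in its lower Confine count. AC164106.1 had 0 counts in every Ctrl library and 310 and 458 in Confine. It lies inside the gene body of Kctd16 on the same strand. Kctd16 had 0 counts in every Ctrl library and 36 and 59 in Confine, and its part in the AC164106.1 reads was not tested. Car12 had 1, 0 and 0 counts in Ctrl and 117 and 154 in Confine, beside Acap1 and Atp9a. The genes with the lowest passing counts were Prtn3, Atp9a and Car12, and those just under the limit of 100 were Ccl3, a chemokine (2, 0 and 0 against 244 and 97), Ghrh, and Selenbp1, a selenium-binding protein gene (2, 0 and 0 against 105 and 76). The limit thus cut through a run of genes with similar counts, from 122 for Acap1 to 76 for Selenbp1.

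**Figure D3:**
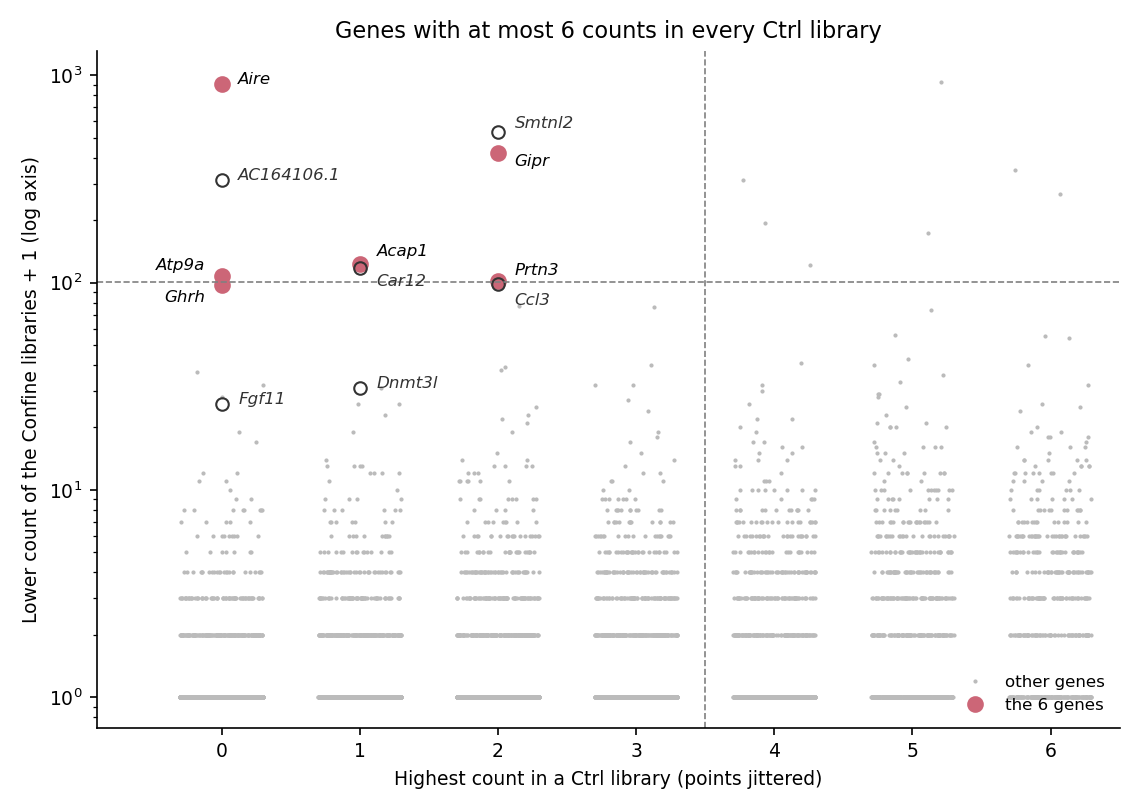
Lower count of the Confine libraries plus 1 (log axis) against the highest Ctrl count (jittered), for genes with at most 6 counts in every Ctrl library. Filled points are the 6 named genes, open circles other genes in the text, small points the rest, and dashed lines the limits of 3 and 100 counts. Aire stands highest at 906 counts, and Ghrh at 96 lies just under the limit of 100.

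Position on the chromosome did not enter the choice of these genes, so their neighbours were tested, with the limits on overlap and on the count filter. Within 100 kb of the 6 genes lie 78 annotated genes, 62 of them protein coding. Of these, 45 passed the filter on low counts, and 7 were called higher in Confine and 0 lower by edgeR's quasi-likelihood test (Benjamini-Hochberg adjusted p under 0.05 with a log2 fold change beyond 1.5 in either direction). That is 15.6% called higher, beside 4.89% higher and 3.11% lower over all 15881 tested genes. At the adjusted p alone, 10 neighbours were higher and 1 lower, beside 12.8% and 10.2% over all tested genes. The median log2 fold change of the 45 neighbours was 0.28, and that of all tested genes was -0.002. Without the neighbours that overlap a named gene, 5 of 43 were called (11.6%). Of the 7 called neighbours, Dnmt3l, Fgf11 and Nfatc2 passed the count filter only through the Confine libraries, and genes that did so were called higher in 243 of 771 cases over the whole table and lower in 0. Of the 41 neighbours that reached the filter in the Ctrl libraries alone, 4 were called higher (9.76%), and 3 of 40 (7.50%) when Plppr3 was also left out for its overlap, beside 3.53% of all genes that reached it in Ctrl alone. The neighbours are few and adjoin one another, so these shares are a description.

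The 2 tested genes that overlap a named gene were both called. Dnmt3l, which encodes a cofactor of the de novo DNA methyltransferases, lies head to head with Aire on the opposite strand, and the genes share 1664 bp, with 67 bp of exon in common. Dnmt3l had 0, 1 and 0 counts in Ctrl and 35 and 30 in Confine (pooled ratio 93.6, 95% counting interval 16.2 to 3755; adjusted p 4.75e-05 by edgeR's quasi-likelihood test). Dnmt3l passed the count filter only through the Confine libraries, so its call and adjusted p are a description. Dnmt3l reads were few beside the 1407 and 906 of Aire, and the part of the shared exon in the Dnmt3l count was not tested. Plppr3, a phospholipid phosphatase-related gene known from neurons, overlaps the annotated 5′ end of Prtn3 by 159 bp on the opposite strand. Plppr3 had 34, 29 and 37 counts in Ctrl and 964 and 986 in Confine, a log2 fold change of 4.81 (SE 0.24, adjusted p 1.00e-10, edgeR).

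The Prtn3 count in Ctrl was 2.94%, 6.90% and 5.41% of that of Plppr3, and in Confine it was 10.5% and 17.7%. A search of 44 transcripts of the 6 genes against all annotated transcripts found 1 near-identical stretch in another gene (at least 95% identity over at least 100 bp), which was this shared exon of Prtn3 and Plppr3. Whether counting used the strand is not given in the sources used here, and without strand, reads from the exon sequence shared by Prtn3 and Plppr3, or by Aire and Dnmt3l, cannot be assigned to either gene. The part of this overlap in the Prtn3 and Plppr3 counts was not tested. The other 5 genes had no stretch of that length in another gene, and the 67 bp that Aire shares with Dnmt3l fall under the length searched. The intronic microRNA genes Mir6924 in Acap1 and Mir7004 in Atp9a had 0 counts in every library.

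Beside Aire, Pfkl, the liver-type phosphofructokinase of glycolysis, lies 19.9 kb downstream on the same strand and rose. Pfkl had 3219, 2345 and 2276 counts in Ctrl and 12216 and 10964 in Confine, a log2 fold change of 2.10 (SE 0.18, edgeR adjusted p 9.97e-08). Unlike Aire, Pfkl was well expressed in Ctrl. The nearest genes that were too low to test were Icosl, with 2, 0 and 0 counts against 8 and 15, and Trpm2, with 0, 1 and 0 against 4 and 3. Of the 6 neighbours of Aire, 3 were tested and 2 called.

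Acap1 had the most neighbours, with 26 annotated, 16 tested and 3 called higher. Kctd11, an adaptor of a ubiquitin ligase, begins 161 bp beyond the 3′ end of Acap1 on the same strand. Kctd11 had 545, 442 and 401 counts in Ctrl and 3006 and 3106 in Confine, a log2 fold change of 2.68 (SE 0.18, edgeR adjusted p 6.86e-09). Tmem95, which encodes a sperm membrane protein, lies 3.55 kb downstream and had 17, 21 and 14 counts against 99 and 112 (log2 fold change 2.55, SE 0.36, edgeR adjusted p 3.98e-05). Fgf11, an intracellular member of the fibroblast growth factor family, lies 79.7 kb downstream and had 0 counts in every Ctrl library and 25 and 39 in Confine, at least 30.7-fold above the Ctrl floor (edgeR adjusted p 5.89e-05). Fgf11 passed the count filter only through the Confine libraries, so its call and adjusted p are a description. Both Confine libraries of Kctd11, Tmem95 and Fgf11 lay above all Ctrl libraries. On the upstream side, 2810408A11Rik, 1.81 kb away, had a log2 fold change of 1.18 (SE 0.27, edgeR adjusted p 0.00354), under the fold cutoff.

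Of the 4 neighbours of Atp9a only Nfatc2, a transcription factor controlled by calcium and calcineurin, passed the filter. It did so only through the Confine libraries, and it was called higher. Nfatc2 lies 32.8 kb downstream on the same strand and had 7, 10 and 4 counts in Ctrl and 52 and 35 in Confine (log2 fold change 2.55, SE 0.51, edgeR adjusted p 0.0012). Sall4, 5.92 kb upstream of Atp9a, had 0 counts in every library. Atp9a and its tested neighbour were thus both low in Ctrl.

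No tested neighbour of Gipr or Ghrh was called. The 9 tested neighbours of Gipr had log2 fold changes from -0.48 to 0.50, with -0.20 for Snrpd2, a spliceosome subunit gene 2.52 kb downstream, and 0.41 for Eml2, 10.3 kb upstream. The 3 tested neighbours of Ghrh had log2 fold changes from -0.19 to 0.32, with -0.19 for Rpn2, an oligosaccharyltransferase subunit gene 3.18 kb downstream, and 0.28 for Manbal, 20.1 kb upstream. These values stand beside at least 103-fold for Ghrh itself and 781-fold for Gipr. None of these neighbours passed an adjusted p under 0.05 in edgeR.

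Prtn3 lies in a cluster of granule protease genes, and the others of that cluster stayed at low counts. Elane, the neutrophil elastase gene 3.07 kb downstream, had 0 counts in Ctrl and 0 and 10 in Confine. Cfd, complement factor D, had 1, 0 and 0 counts in Ctrl and 0 in Confine, and Prss57 had 4, 3 and 0 against 3 and 12. The Confine counts of Prtn3, 101 and 175, were far above those of the cluster. Of the 13 tested neighbours of Prtn3, Plppr3 was the 1 called. The nearest tested genes that do not overlap were the pseudogene Gm19810, with a log2 fold change of 0.02 that turned negative under library size alone (-0.19), and Ptbp1, a splicing regulator, with -0.42.

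**Figure D4:**
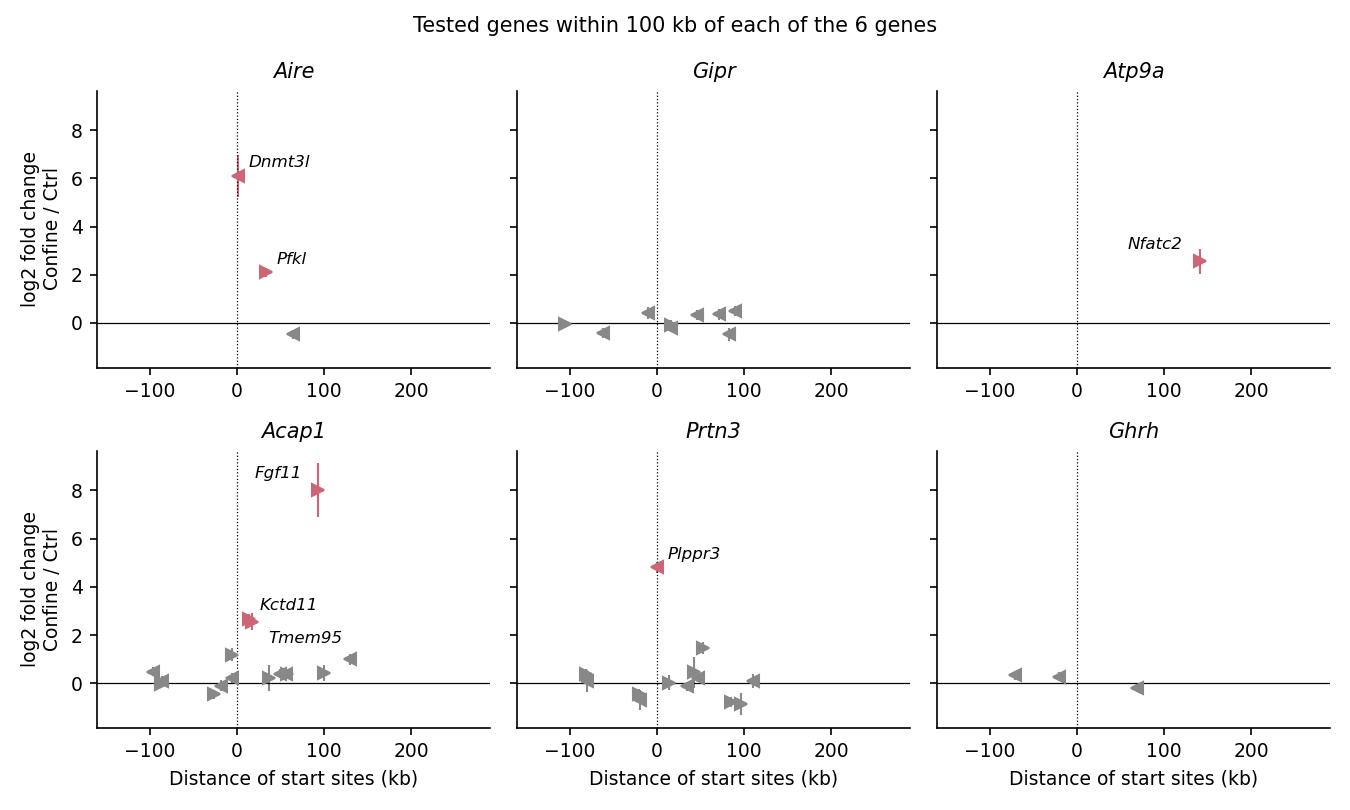
Log2 fold change (Confine against Ctrl) of the tested neighbours of each named gene against the distance between start sites in kb, positive downstream in the direction of the named gene, with error bars of 1 approximate SE. Triangles show the strand and red marks the 7 neighbours called higher, of which the 5 that do not overlap a named gene lie downstream, and Fgf11, at 0 counts in Ctrl, has a fitted value that is not a bound.

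Most neighbours that were near 0 in Ctrl stayed low in Confine. Of the 78 neighbours, 30 had at most 3 counts in each Ctrl library, and 2 of these, Dnmt3l and Fgf11, had at least 10 counts in each Confine library. Over the whole table, 77 of 35784 genes with at most 3 counts in each Ctrl library did so, a smaller share. The 30 neighbours are few, and Dnmt3l overlaps Aire, so these shares are a description. Among the 33 neighbours that were not tested, 24 had at most 3 counts in every library and 15 had 0 throughout.

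The genes that act with the 6 named genes were read from lists of pathway members. Of 107 tested genes in these lists 7 were called (6.54%), near the 8.0% called over all tested genes. With library size alone, 5 were called. For Aire, 27 genes of its induction and its partners were in the table, 21 were tested, and 1 was called higher and 0 lower, with a median log2 fold change of 0.10. The called gene was Jmjd6, a dioxygenase known to act on Aire splicing, with 1945, 1568 and 1604 counts in Ctrl and 6623 and 4881 in Confine (log2 fold change 1.69, SE 0.18, edgeR adjusted p 1.35e-06), which fell to 1.48, under the cutoff, with library size alone. Top2a, a topoisomerase and the most abundant gene of the list, had a log2 fold change of -1.24, short of the fold cutoff, and of -1.51, past it, without Confine replicate 3. Ltb and Fezf2 were at 0 counts. Of 5 tissue antigen genes that depend on Aire in the thymus, none could be tested, and Ins2, Rbp3, Csn2 and Fabp9 had 0 counts in every library while Aire had 1407 and 906.

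For Gipr, 22 other genes of the incretins and class B1 receptors were in the table, 10 of them at 0 in every library, including Glp1r and Gcg. Gip, the ligand of Gipr, had 3, 7 and 7 counts in Ctrl and 3 and 5 in Confine. Of 3 tested genes, 0 were higher and 1 lower. This was Ramp2, a receptor accessory protein gene, with 34, 16 and 21 counts against 7 and 1 (log2 fold change -2.60, SE 0.71, edgeR adjusted p 0.0118). Without Confine replicate 3 its log2 fold change was -1.90 and the call was lost (edgeR adjusted p 0.15). Ramp3, the most abundant gene of this list, had a log2 fold change of 1.10 and was not called, but reached 1.56 and was called without Confine replicate 1. Gipr reads thus appeared without a comparable count of its ligand.

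Of 33 genes of cAMP signalling, through which Gipr and the receptor of Ghrh act, 26 were tested, 2 were called higher and 1 lower, and the median log2 fold change was 0.09. Adcy4, an adenylyl cyclase gene, had 11, 3 and 3 counts in Ctrl and 45 and 118 in Confine (log2 fold change 3.83, SE 0.57, edgeR adjusted p 6.60e-05). Nr4a3, a nuclear receptor gene induced by cAMP, had 1, 2 and 0 counts against 17 and 13 (edgeR adjusted p 0.00457, and 0.0667 without Confine replicate 1). Adcy4 and Nr4a3 passed the count filter only through the Confine libraries. Pde4b, a cAMP phosphodiesterase gene, fell, with 524, 332 and 342 counts against 120 and 117 (log2 fold change -1.79, SE 0.24, edgeR adjusted p 2.48e-05). Prkaca, the kinase subunit gene with the highest level of the list, had a log2 fold change of 0.15, and of -0.06 under library size alone.

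For Ghrh, 21 other genes of the growth hormone axis were in the table, 8 were tested and 0 called. By adjusted p alone in edgeR, Ghr, the growth hormone receptor gene, was higher (log2 fold change 1.00, adjusted p 3.98e-04), as was Cish, a feedback inhibitor (0.92, adjusted p 0.00318), and Igf1 was lower (-1.14, adjusted p 0.0103). Ghrhr, the receptor of Ghrh, had 1, 0 and 3 counts in Ctrl and 6 and 3 in Confine. Socs2, another feedback inhibitor and the most abundant gene of the list, had a log2 fold change of 0.09, and of -0.12 under library size alone. Gsx1, a homeodomain activator of Ghrh in the hypothalamus, had 0 counts in every library.

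For Atp9a, 15 of 21 other genes of P4-ATPases and their partners were tested, and 1 was called higher and 0 lower. This was Atp10d, with 19, 29 and 35 counts in Ctrl and 116 and 58 in Confine (log2 fold change 1.54, SE 0.40, edgeR adjusted p 0.00801). The call of Atp10d was lost without Ctrl replicate 1 (log2 fold change 1.27) and without Confine replicate 1 (log2 fold change 1.10), and with library size alone (log2 fold change 1.33). Atp9b, the closest relative of Atp9a, had 1165, 1521 and 945 counts in Ctrl and 1813 and 1424 in Confine, a log2 fold change of 0.36 that was not called. Atp9b was thus expressed in both groups while Atp9a had reads only in the Confine libraries. Snx3, a sorting nexin gene with the highest level of the list, had a log2 fold change of 0.25.

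For Acap1, 32 of 40 other genes of ARF GTPases, their GAPs and their exchange factors were tested, with 0 called higher and 1 lower. This was Psd4, an exchange factor of ARF6, with 21, 32 and 34 counts in Ctrl and 0 and 1 in Confine (edgeR adjusted p 1.95e-04). Acap2 and Acap3, the relatives of Acap1, had 608 and 562 and 543 and 416 counts in Confine, with log2 fold changes of -0.16 and -0.37, neither called. Arf1, the most abundant gene of the list, had a log2 fold change of 0.07, and of -0.14 under library size alone. For Prtn3, 2 of 13 other neutrophil protease genes and inhibitors were tested and 0 called, Slpi, an inhibitor gene, having a log2 fold change of 0.31. Ctsg, Mpo, Ctsc and Gfi1 of that list had 0 counts in every library.

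Markers of fibroblasts and of some cell types in which the named genes are known were read beside them. No fat cell markers were read for Gipr and no list for Atp9a, and the trophoblast list belongs to none of the named genes. The 15 fibroblast markers summed to 8962 to 9819 CPM in Ctrl and 16093 to 16922 CPM in Confine, with Thy1 and Fap at 3 counts or fewer in every library. Vim, at a mean of 3476 CPM in Ctrl and 6807 in Confine, was the largest part of the sum. Of 12 tested, 1 (Col3a1) was called higher and 0 lower. At the edgeR adjusted p alone, 6 were higher and 1 lower, beside 12.8% and 10.2% over all tested genes. The lower one was Postn (log2 fold change -0.96, edgeR adjusted p 0.00557). For Aire, 17 markers of thymic epithelium summed to 25.5 to 26.2 CPM in Ctrl and 23.8 to 27.4 CPM in Confine, and Epcam, Krt18, Cldn3, Cldn4, Ccl21a and Pax1 were at 0. Of 5 tested genes of this list, 0 were higher and 2 lower at the edgeR adjusted p alone, both short of the fold cutoff. Trp63 had 75, 27 and 52 counts against 23 and 15 (log2 fold change -1.49, edgeR adjusted p 0.028). Ly75 had 80, 83 and 63 counts against 40 and 38 (edgeR adjusted p 0.0399). Foxn1, the defining factor of thymic epithelium, had 43, 61 and 73 counts in Ctrl and 75 and 110 in Confine and was not called. The part of such cells in the Aire reads was not tested. For Prtn3, 16 markers of neutrophils and myeloid progenitors summed to 13.1 to 20.0 CPM in Ctrl and 214.2 to 216.8 CPM in Confine. Nearly all of that rise was Lcn2, a secreted lipocalin that other cells also make, with 499, 299 and 260 counts against 6190 and 5271, while Mpo, Ctsg, S100a9, Ngp, Ltf, Csf3r and Kit were at 0 and Ptprc at 3 counts or fewer. Camp, a neutrophil granule peptide gene of the same list, had 65, 48 and 83 counts against 147 and 172 (log2 fold change 1.22, edgeR adjusted p 0.00738), under the fold cutoff. The part of such cells in the Prtn3 reads was not tested. For Acap1, 16 lymphocyte markers summed to 8.26 to 11.0 CPM in Ctrl and 3.61 to 6.19 CPM in Confine, with 8 of them at 0.

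For Gipr, 14 islet markers summed to less than 1 CPM in every library, with 10 of them at 0. For Ghrh, 15 neuroendocrine and hypothalamic markers summed to 19.9 to 25.6 CPM in Ctrl and 16.0 to 16.6 CPM in Confine, with 7 at 0. Gnrh1, a hypothalamic hormone gene of this list, was called higher, with 24, 12 and 22 counts against 75 and 55 (log2 fold change 1.67, edgeR adjusted p 0.00572). Hmx2 of the same list went the other way, with 84, 91 and 77 counts against 41 and 38. Its log2 fold change was -1.15 (edgeR adjusted p 0.0168), short of the fold cutoff. Of 4 tested genes of this list, 1 was higher and 1 lower at the edgeR adjusted p alone. A list of 14 trophoblast markers summed to 116.4 to 240.6 CPM in Ctrl and 278.4 to 332.5 CPM in Confine, mostly Prl2c2, with Tpbpa, Hand1, Cdx2, Elf5 and Synb at 0. In that list Ascl2, a placental transcription factor gene, was called higher (0, 0 and 1 counts against 31 and 18, edgeR adjusted p 2.17e-04), and Plac1 and Peg10 were called lower (log2 fold changes -1.77 and -1.93). Ascl2 passed the count filter only through the Confine libraries. The granule genes Mpo and Ctsg and the islet hormone genes Ins1, Ins2 and Gcg were at 0 in the libraries that held Prtn3 and Gipr reads. Other genes of the neutrophil list had counts, and the low ones went both ways. Elane had 0 counts in Ctrl and 0 and 10 in Confine, and Spi1 had 1, 0 and 0 against 0 and 5. Fcgr3 had 7, 0 and 0 counts in Ctrl and Ly6g 3, 0 and 3, both with 0 in Confine. Lcn2 and Camp were higher in Confine, as given above.

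Across libraries, total counts ran from 22287210 to 27853805 in Ctrl and were 32537550 and 27290138 in Confine. A floor of 3 counts in 1 library corresponds to 0.101 to 0.128 normalized CPM, below the lowest Confine level of the 6 genes, 3.24 CPM for Ghrh in replicate 1. In the comparison of all genes, 777 were called higher and 494 lower of 15881 tested by edgeR, and when libraries were scaled without TMM factors 622 were higher and 678 lower, with the median log2 fold change moving to -0.21.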

How the data were processed

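RNA-seq counts of MEF in the Ctrl and Confine groups were read from 1 table. The authors deposited raw counts per gene, without normalization. The submitters' processing notes name Trim Galore 0.6.10, HISAT2 2.1.0, SAMtools 1.5, featureCounts and the build mm10, with no role stated. The annotation, the strand setting and the treatment of reads with several matches are not given in the sources used here, and could move counts between overlapping genes. Gene identifiers were looked up in the GENCODE M21 annotation of GRCm38, of which 54587 matched in version and 55154 when versions were ignored. This gave names, positions and exon lengths. Columns left unused numbered 0.

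Counts were filtered with filterByExpr, scaled by TMM factors and fitted in edgeR 4.0.16 (R 4.3.3) by quasi-likelihood on 3 Ctrl and 2 Confine libraries (3 residual degrees of freedom), with Benjamini-Hochberg adjustment over 15881 genes. Calls needed an adjusted p under 0.05 together with a log2 fold change beyond 1.5 in either direction. SE values are approximate, from the quasi-likelihood F. The identical Confine columns were counted once, where 3 against 3 had been planned. CPM use TMM library sizes. Ratios of pooled counts carry exact 95% binomial intervals. Total counts per library ran from 22287210 to 32537550. Neighbours were genes whose body overlaps the 100 kb on either side of a gene. Copies were searched with blastn 2.17.0. The fit was checked on simulated counts.

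The 6 genes, the gene lists and the rule for naming genes were chosen with earlier results of these data known. Named were the 6 genes, other genes with at most 3 counts in each Ctrl and at least 100 in each Confine library, the 3 genes on either side of that limit, called, overlapping and nearest tested neighbours, and the called and the most abundant gene of each pathway list. Other genes named with values (Icosl, Trpm2, Sall4, Elane, Cfd, Prss57, Gip, Ghrhr, Ghr, Cish, Igf1, Atp9b, Acap2, Acap3, Kctd16 and the markers) were chosen after their values were seen. Alternatives were DESeq2 1.42.0, other normalizations, filters, limits and windows, leaving out libraries in turn and a replicate block.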

Additional observations from a re-analysis of the deposited data

How the results depend on the processing

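The 2 Confine libraries limit every value, and no further distinct Confine library was analysed here. Without the fold cutoff, 3654 of 15881 tested genes passed the adjusted p, 12.8% higher and 10.2% lower. Of 45 tested neighbours 11 did so, and of 107 tested listed genes 27, shares near that of all tested genes. Within 250 kb, 12 neighbours were called, for which no share of the tested genes was formed. Of 41 neighbours within 100 kb that reached the count filter in Ctrl alone, 4 were called higher (9.76%), beside 3.53% of all such genes. This alternative was chosen after seeing the data. The number of genes near 0 in Ctrl and present in Confine was 3 with at most 0 Ctrl counts, 5 with at most 1 and 17 with at most 10, and it was 21 with at least 30 Confine counts, 4 with at least 200 (Aire and Gipr among them) and 4 with counts scaled to the smallest library. Leaving out 1 library in turn gave 1078 to 1290 called genes, 7 to 8 called neighbours, 6 to 7 listed genes and 8 to 11 genes with the pattern. The Confine level then ran from 36.9 to 48.4 CPM for Aire, 14.4 to 27.1 for Gipr, 3.65 to 5.62 for Atp9a, 4.20 to 6.55 for Acap1, 3.48 to 7.12 for Prtn3 and 3.31 to 4.84 for Ghrh. The 7 called neighbours stayed called in each of 13 alternative fits (12 for Fgf11, which a stricter filter removed), with Nfatc2 reaching the highest adjusted p of 0.0339 (edgeR or DESeq2).

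Same-numbered samples were not shown to be paired: the correlation of their deviations was -0.05 with the repeated library as number 2 and 0.05 as number 1. With the replicate block, 1141 and 1315 genes were called in these 2 numberings, with 8 and 7 neighbours and 7 listed genes in both, and Atp10d was no longer called with the library as number 2 (log2 fold change 1.24, edgeR adjusted p 0.0649). No other gene named by the rule lost its call under the block. The alternative fits were not read for the marker genes, among them Gnrh1, Ascl2, Plac1, Peg10 and Lcn2. Some genes near no change turned direction. Arf1 reached -0.14 with library size alone, -0.046 with the block as number 1, and -0.048 to 0.15 leaving out 1 library. Gm19810 reached -0.19 with library size alone, -0.13 with the block as number 2, -0.13 with the identical columns counted as 2 libraries, and -0.43 to 0.37 leaving out 1 library. Socs2 reached -0.12 with library size alone, -0.010 with the block as number 2, and -0.088 to 0.24 leaving out 1 library. Prkaca reached -0.063 with library size alone. The cause of these turns was not tested.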

Other observations

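The neighbours of the 6 genes could also be sorted by side and strand, a split made after their values were seen and given without a test. Of 14 tested neighbours downstream on the same strand, 5 were called higher (Kctd11, Tmem95, Fgf11, Pfkl and Nfatc2), beside 4.89% over all tested genes. The median log2 fold change of the 14 was 0.44. Of the 5, Fgf11 and Nfatc2 passed the count filter only through the Confine libraries. Of the 13 downstream on the opposite strand, the 10 upstream on the opposite strand and the 6 upstream on the same strand, 0 were called. Several of these genes share a named gene and adjoin one another.

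At most 3 counts in each Ctrl library and at least 30 in each Confine library were found for 21 genes. The opposite pattern was found for 0 genes, in groups that differ in number and total counts of libraries. Of the 21 genes, 13 lay below 100 in the lower Confine library. Among these 13, named here after their values were seen, were Mir210, a hypoxia-induced microRNA gene counted in polyadenylated RNA, Mmp12, the macrophage elastase gene, and the prolactin-family gene Prl8a9, each with a lower Confine count of 31 to 37.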
